A study of Homo sapiens with 4 samples.

Results

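Splicing factor and RNA helicase genes were followed through a chromatin immunoprecipitation and sequencing (ChIP-seq) comparison of the transcription factor ZHX2, which has zinc fingers and homeodomains. Members were protein-coding genes with a listed peak whose symbols start with SRSF, SF3A, SF3B, PRPF, HNRNP, SNRP, SNRNP, DDX, DHX, LSM or U2AF, or with RBM followed by a digit, X or S. They numbered 89 genes with 95 peaks, of 7640 genes and 8871 peaks in all. RefSeq names 195 protein-coding genes by the same pattern, and 88 of these had a peak under the same symbol. The share of all RefSeq protein-coding genes with a peak was not taken, so this count has no background here. The cells were DB, an established human B-cell lymphoma line, fixed with formaldehyde. To find molecules that differ downstream, an arm labelled ZHX2 was set against an arm labelled ZHX2_Mut4 (Mut4 from here on). The labels give neither the residues changed in Mut4, nor how either form was introduced, nor whether endogenous ZHX2, to which the antibody would also bind, was present. Each arm had 1 ChIP library, made with an antibody to ZHX2, and 1 input library, which was not used here.

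Splicing removes introns from pre-mRNA on the spliceosome, which is assembled from small nuclear ribonucleoproteins (snRNPs), each an RNA with its ring of Sm or LSM proteins. SR and hnRNP proteins bind the transcript and promote or hinder the use of nearby exons. DEAD-box (DDX) and DEAH-box (DHX) helicases use ATP to remodel RNA and RNA-protein complexes during splicing, ribosome assembly, export, translation and decay. Most of these genes are expressed in nearly all cells.

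Promoter sequences are shown first for the 7 members with a peak with an adjusted p that the authors' deposited table puts under 0.05. They are the 250 bases before the RefSeq transcription start (GRCh38.p14) nearest the middle of that peak, 5′ to 3′ on the strand of the gene. Capitals mark CCAAT or its reverse complement ATTGG, the sequence bound by NFY, with which ZHX proteins are known to interact. The first 4 had more signal in ZHX2 and the last 3 less, on the authors' scaling. SRSF3 lies on the plus strand at chr6:36594112-36594361, SRSF7 on the minus strand at chr2:38751362-38751611, RBM25 on the plus strand at chr14:73058284-73058533 and HNRNPA2B1 on the minus strand at chr7:26200747-26200996. U2AF2 lies on the plus strand at chr19:55654785-55655034, SNRNP70 on the plus strand at chr19:49085201-49085450 and HNRNPF on the minus strand at chr10:43408858-43409107.
SRSF3: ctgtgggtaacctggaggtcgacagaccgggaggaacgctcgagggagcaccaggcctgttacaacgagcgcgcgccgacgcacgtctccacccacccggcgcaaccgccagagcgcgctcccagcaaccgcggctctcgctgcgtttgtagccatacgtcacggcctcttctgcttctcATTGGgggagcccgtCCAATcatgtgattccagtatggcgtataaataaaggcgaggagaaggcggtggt
SRSF7: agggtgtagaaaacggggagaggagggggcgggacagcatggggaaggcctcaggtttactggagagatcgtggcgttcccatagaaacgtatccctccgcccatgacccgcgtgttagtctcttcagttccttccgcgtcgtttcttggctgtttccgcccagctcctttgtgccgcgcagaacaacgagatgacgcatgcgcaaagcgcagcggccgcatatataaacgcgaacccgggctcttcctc
RBM25: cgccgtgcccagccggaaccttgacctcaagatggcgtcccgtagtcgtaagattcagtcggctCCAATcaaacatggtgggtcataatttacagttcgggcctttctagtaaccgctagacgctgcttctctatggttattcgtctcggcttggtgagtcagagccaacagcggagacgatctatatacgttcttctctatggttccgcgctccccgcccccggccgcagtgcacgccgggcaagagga
HNRNPA2B1: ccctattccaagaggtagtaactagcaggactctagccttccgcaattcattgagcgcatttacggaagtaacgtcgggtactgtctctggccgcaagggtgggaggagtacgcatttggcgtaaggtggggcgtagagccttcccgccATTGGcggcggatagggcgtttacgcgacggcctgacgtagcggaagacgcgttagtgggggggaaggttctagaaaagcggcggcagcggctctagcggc
U2AF2: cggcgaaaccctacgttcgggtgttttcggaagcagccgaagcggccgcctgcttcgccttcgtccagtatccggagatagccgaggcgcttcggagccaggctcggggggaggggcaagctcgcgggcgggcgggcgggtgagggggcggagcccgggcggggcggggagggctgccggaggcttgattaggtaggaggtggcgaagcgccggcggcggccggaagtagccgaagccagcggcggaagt
SNRNP70: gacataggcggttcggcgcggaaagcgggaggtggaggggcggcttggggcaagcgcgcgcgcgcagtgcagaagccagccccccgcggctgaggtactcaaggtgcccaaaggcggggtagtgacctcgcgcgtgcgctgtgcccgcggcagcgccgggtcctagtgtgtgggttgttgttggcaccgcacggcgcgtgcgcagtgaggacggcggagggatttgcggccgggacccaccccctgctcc
HNRNPF: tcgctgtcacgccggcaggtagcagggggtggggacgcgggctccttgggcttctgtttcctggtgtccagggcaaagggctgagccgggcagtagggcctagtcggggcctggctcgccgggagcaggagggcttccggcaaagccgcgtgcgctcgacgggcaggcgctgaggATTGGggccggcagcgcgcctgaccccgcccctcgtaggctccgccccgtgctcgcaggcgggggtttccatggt
The SRSF3 sequence held 2 matches, starting 70 and 55 bases before the start. HNRNPF, HNRNPA2B1 and RBM25 held 1 match each, starting 75, 101 and 186 bases before it. SRSF7, U2AF2 and SNRNP70 held none in this window. The U2AF2 window begins before its peak, which starts at 55654956, and is thus only partly under that peak. The letters were thus present and absent among genes of both directions.

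Each peak has 1 value per arm, a number of reads solved from what the table gives as fold and mean signal. Over the listed peaks these summed to 541900 in ZHX2 and 271694 in Mut4. A scaled fold is the ratio of the reads divided by 2.14, the ratio of the library sizes behind the authors' values, so that a typical listed peak has a fold near 1. Its exact 95% interval covers counting error only. With 1 ChIP library per arm there is no replicate error, and no difference between the arms was tested. Where reads are given as a pair, the first number is ZHX2 and the second Mut4. Peak positions are on hg38 as deposited.

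The members as a whole lay evenly on both sides of 1 on the authors' scaling. Higher folds in ZHX2 were found at 49 peaks and lower folds at 46, a share higher of 51.6% (exact 95% interval 41.1 to 62.0) against 50.4% of all listed peaks. The median log2 fold was 0.029 in the members (quartiles -0.49 and 0.36) and 0.0046 over all peaks. Past 2-fold lay 1 higher peak of 95, or 1.05% (0.0267 to 5.73), below the 8.44% of all peaks. The 5 lower ones made up 5.26% (1.73 to 11.9), beside 5.31%, and in either direction the 6 were 6.32% (2.35 to 13.2), beside 13.8%. The counting interval lay above 1 at 12 peaks and below 1 at 13, or 12.6% (6.70 to 21.0) and 13.7% (7.49 to 22.3), against 11.0% and 11.0% of all peaks. An adjusted p under 0.05 stood in the authors' deposited table at 7 of the 95, beside 5.95% of all peaks. Of these 4 were higher, where the background was 2.53%, and 3 lower, where it was 3.43%. The shares by counting interval and by adjusted p were near those of the whole list. On the higher side a smaller share of members than of all peaks lay past 2-fold. Members also held more reads, with a median of 33 and a minimum of 10 in Mut4, against 22 and 0 over all peaks. The part of read number in this share was not tested. The deposited p-values compare 2 libraries, not the conditions.

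Directions at single genes depended on the scaling. With the reads left unscaled 92 of the 95 peaks held more reads in ZHX2, and 95.5% of all peaks did. At the 12 peaks with an interval above 1 the unscaled interval lies above 1 by construction, because it is the scaled interval times 2.14. This is therefore no check of their direction. Of the 13 with an interval below 1, 10 held more reads in ZHX2 and 3, at RBM22, SNRNP70 and U2AF2, more in Mut4, as did 4.06% of all peaks. None of the 13 had an unscaled interval below 1, and that of RBM12 lay above 1. "Higher" and "lower" are therefore relative to the authors' scaling unless unscaled reads are named.

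**Figure D1:**
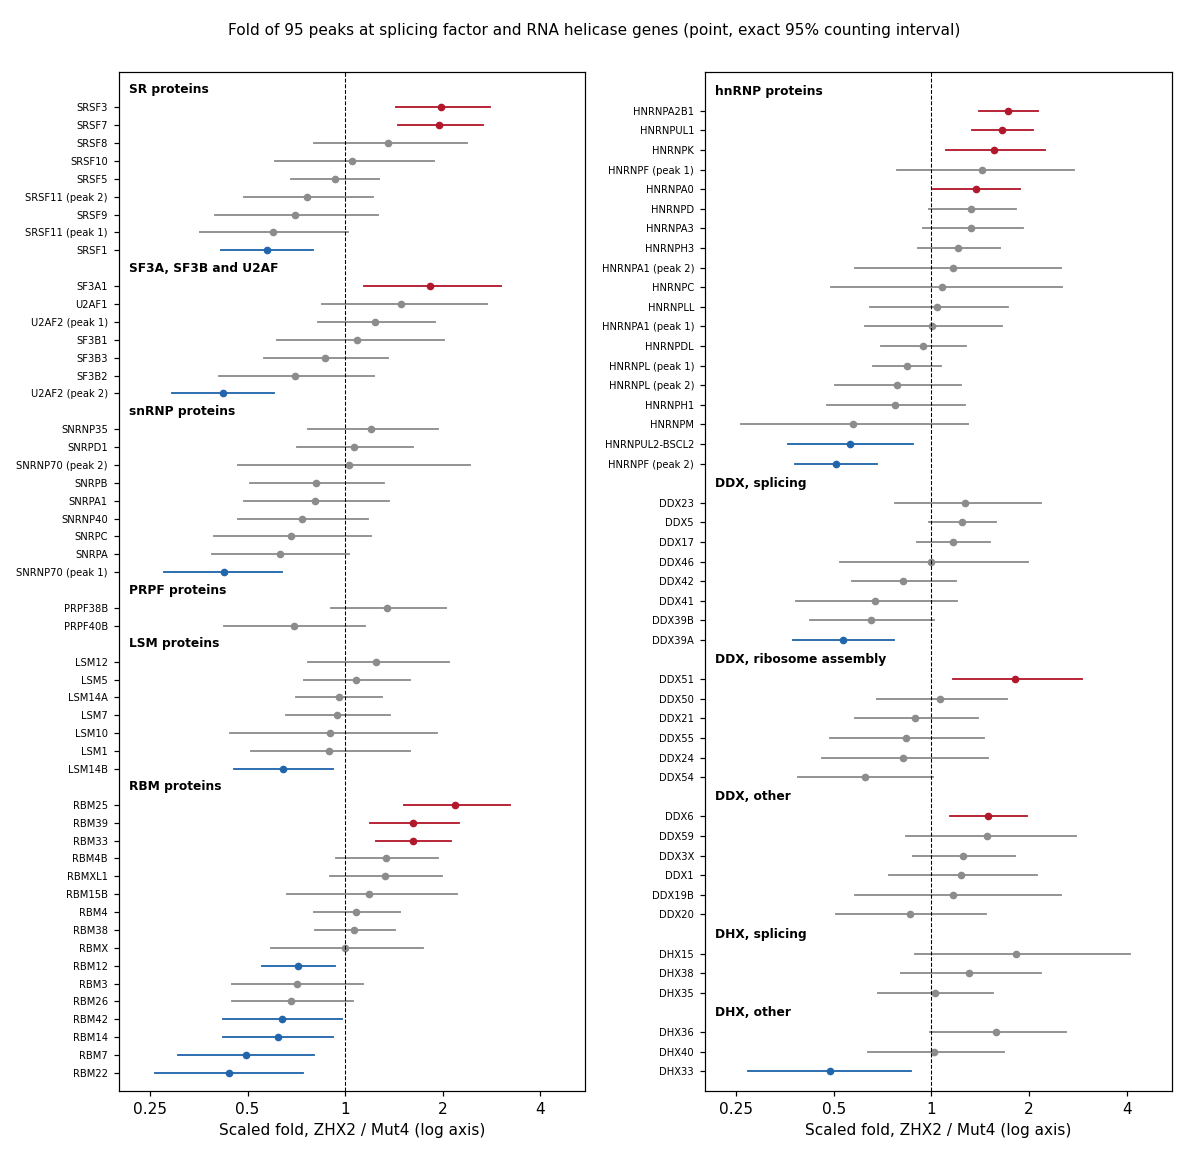
Scaled fold of ZHX2 over Mut4 (log axis, authors' scaling) for each of the 95 peaks, grouped by role, with points for the fold and lines for the exact 95% counting interval. Red marks the 12 intervals above 1, blue the 13 below 1 and grey the 70 that hold 1; with unscaled reads all but 3 peaks lie on the ZHX2 side.

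Peaks at these genes were mostly at their starts. The promoter class held 78 of 95, 82.1% (72.9 to 89.2). It held 4314 of the 6762 peaks of protein-coding genes, and 56.6% of the peaks of all gene types. Within 1000 bp of a transcription start lay 89 of 95, against 74.0% of the peaks of all gene types. The latter share was not taken for protein-coding genes alone. Outside the promoter class the members had 8 intronic, 7 exonic and 2 intergenic peaks. Member peaks held a median of 60 ZHX2 reads (quartiles 44 and 110) and 33 Mut4 reads (23.5 and 50), against 45 and 22 over all peaks. Per length the medians over the 95 member peaks were 59.9 reads per kb in ZHX2 and 31.9 in Mut4, against 44.4 and 21.3 over all peaks. Over the 78 member peaks of the promoter class they were 61.2 and 32.8, against 48.5 and 23.4 over 4314 promoter peaks of protein-coding genes. The authors' marks put 92 member peaks in ZHX2 alone, 3 in both arms, those of SRSF5, SRSF7 and the U2AF2 start, and 0 in Mut4 alone. Over all peaks these marks made up 95.5%, 2.09% and 2.37%.

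SR proteins, which bind exonic enhancers through RNA recognition motifs and recruit the splicing machinery through arginine- and serine-rich tails, had members on both sides of 1. SRSF3 (ENSG00000112081), which also acts in mRNA export, had a promoter peak on chromosome 6, 36593885 to 36595120, with 195 ZHX2 and 46 Mut4 reads. This was a fold of 1.98 (1.43 to 2.79), and the authors' deposited table lists an adjusted p of 0.0318. SRSF7 (ENSG00000115875), an SR protein with a zinc knuckle, had a promoter peak on chromosome 2, 38750437 to 38751977, with 238 and 57 reads. Its fold was 1.95 (1.455 to 2.65), and the authors' deposited table lists an adjusted p of 0.0235. Their signal per length was also close, 158 reads per kb for SRSF3 and 155 for SRSF7 in ZHX2, and 37.2 and 37.0 in Mut4.

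The promoter of SRSF1 (ENSG00000136450), the best studied SR protein, stood on the other side. Its peak on chromosome 17, 58006604 to 58007749, held 87 ZHX2 and 71 Mut4 reads, a fold of 0.572 (0.413 to 0.794). Before scaling it held more reads in ZHX2, by a ratio of 1.23 with an interval that holds 1 (0.885 to 1.70). The authors' deposited table lists 0.131 as its adjusted p. The common peak of SRSF5 had 125 reads against 63 and a scaled fold of 0.927 (0.679 to 1.28). SRSF8, SRSF9, SRSF10 and both peaks of SRSF11 had intervals that held 1, with folds from 0.6004 to 1.35. The group had 4 higher and 5 lower peaks and a median log2 fold of -0.11.

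Factors that recognise the branch point and the end of the intron included the lowest fold of all members on the authors' scaling. U2AF2 (ENSG00000063244) is the large U2AF subunit, which binds the polypyrimidine tract. It had a common peak, classed as intronic but covering its start, on chromosome 19, 55654956 to 55655977, with 61 ZHX2 and 68 Mut4 reads. The fold was 0.419, or 2.39-fold lower (1.66 to 3.43), and the authors' deposited table lists an adjusted p of 0.00535. Before scaling the ratio was 0.897 (0.624 to 1.29), an interval that holds 1. A second U2AF2 peak, classed as exonic and 1374 bp before the start, at 55651636 to 55653908, held 90 reads against 34 and a scaled fold of 1.24 (0.825 to 1.89). U2AF1, the small subunit that reads the terminal AG of the intron, had 54 and 17 reads at its promoter and a fold of 1.48 (0.847 to 2.73).

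SF3A1 (ENSG00000099995), a subunit of the U2 snRNP, had 90 ZHX2 and 23 Mut4 reads at its promoter on chromosome 22, 30356236 to 30357292. Its fold was 1.83 (1.15 to 3.03). The SF3B subunits lay nearer 1. SF3B1, which contacts the branch point region and is often mutated in blood cancers, had 42 reads against 18 and a scaled fold of 1.09 (0.614 to 2.01). SF3B3 had 63 reads against 34, and SF3B2 36 against 24, with folds of 0.865 (0.562 to 1.35) and 0.7005 (0.407 to 1.23).

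snRNP proteins had 3 higher and 6 lower peaks under the authors' scaling and a median log2 fold of -0.31, whereas 8 of the 9 held more reads in ZHX2 before it. The 3 proteins specific to the U1 snRNP, which pairs with the start of the intron, all had lower folds at their promoters on that scaling. SNRNP70 (ENSG00000104852), the U1-70K protein, had 46 ZHX2 and 51 Mut4 reads on chromosome 19, 49085030 to 49085750. This was 2.37-fold lower (1.56 to 3.62), and the authors' deposited table lists an adjusted p of 0.0157. SNRPA had 43 reads against 32 and a scaled fold of 0.628 (0.388 to 1.02), and SNRPC 35 and 24 and 0.681 (0.394 to 1.197). At the latter 2 the interval holds 1. The start of SNRNP70 had the most Mut4 reads per length of all members, 70.8 per kb.

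Among the genes named SNRP or SNRNP, core Sm proteins and subunits of other snRNPs had intervals that hold 1. SNRPB had 52 reads against 30 and a scaled fold of 0.809 (0.507 to 1.31), and SNRPD1 82 and 36 reads and 1.06 (0.711 to 1.62). SNRPA1, of the U2 snRNP, had a fold of 0.808 (0.488 to 1.36), SNRNP40, of the U5 snRNP, 0.736 (0.467 to 1.18), and SNRNP35, of the minor spliceosome, 1.201 (0.766 to 1.93). The PRPF genes were PRPF38B, with 98 reads against 34 and a scaled fold of 1.35 (0.903 to 2.05), and PRPF40B, with 43 and 29 and 0.692 (0.422 to 1.15).

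LSM genes lay close to 1, with 2 peaks higher, 5 lower and quartiles of the log2 fold of -0.16 and 0.021 around a median of -0.083. LSM14B (ENSG00000149657), a protein of cytoplasmic mRNA granules, was the member with an interval apart from 1. It had 80 ZHX2 and 58 Mut4 reads on chromosome 20, 62121696 to 62123095, and a fold of 0.644 (0.454 to 0.919), which turned to a ratio of 1.38 (0.971 to 1.97) before scaling. Its paralog LSM14A had 135 reads against 66 and a scaled fold of 0.955 (0.707 to 1.30). LSM5 and LSM7, shared by the nuclear and cytoplasmic LSM rings, had folds of 1.08 (0.744 to 1.59) and 0.944 (0.659 to 1.37). LSM1, of the decay ring, LSM10, of the snRNP that processes histone mRNA, and LSM12 had folds of 0.890, 0.898 and 1.25, with intervals that hold 1.

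Among the hnRNP genes 12 of 19 peaks were higher under the authors' scaling, with a median log2 fold of 0.10, and these peaks were long, with a median of 1645 bp against 1038 bp over all members. HNRNPA2B1 (ENSG00000122566), a relative of the splicing repressor hnRNP A1, had the most reads of any member. Its promoter peak on chromosome 7, 26199337 to 26202572, held 424 ZHX2 and 115 Mut4 reads, a fold of 1.72 (1.40 to 2.13), and the authors' deposited table lists an adjusted p of 0.0381. HNRNPUL1 followed with 385 and 109 reads on chromosome 19, 41262433 to 41265168, and a fold of 1.65 (1.33 to 2.06). The authors' deposited table lists 0.0740 as its adjusted p. HNRNPK, which binds C-rich RNA and DNA, had 147 reads against 44 and a scaled fold of 1.56 (1.11 to 2.24), and HNRNPA0 173 and 59 and 1.37 (1.014 to 1.87).

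HNRNPF (ENSG00000169813), which binds runs of G, had a peak at each of 2 promoters on chromosome 10. At 43407114 to 43409515 it held 101 ZHX2 and 93 Mut4 reads, which is 1.97-fold lower (1.47 to 2.64), and the authors' deposited table lists an adjusted p of 0.0244. The other promoter, at 43396517 to 43397658, held 46 reads against 15 and a scaled fold of 1.43 (0.785 to 2.76). The readthrough gene HNRNPUL2-BSCL2, named at the start of HNRNPUL2, was lower as well, with 48 reads against 40 and a scaled fold of 0.560 (0.361 to 0.875). For both lower peaks the unscaled reads were slightly more numerous in ZHX2. The remaining 13 peaks had intervals that hold 1. HNRNPM had the fewest ZHX2 reads of any member, 16 against 13 in Mut4, at a scaled fold of 0.575 (0.259 to 1.30). HNRNPD, an AU-rich element binding protein, had 165 against 58 and a fold of 1.33 (0.979 to 1.82).

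RBM genes, a class named for the RNA recognition motif rather than for a shared pathway, had the widest fold range of the role groups. Of their 16 peaks 8 were higher and 8 lower, and 8 intervals were apart from 1, where 22.0% of all peaks had one. Counting intervals narrow as reads rise, and RBM peaks held medians of 83.5 ZHX2 and 40 Mut4 reads, against 45 and 22 over all peaks. RBM25 (ENSG00000119707), a U1-associated regulator of splice site choice, had the largest fold of all members. Its promoter on chromosome 14, 73057724 to 73059064, held 168 ZHX2 and 36 Mut4 reads, a fold of 2.18 (1.51 to 3.22), and the authors' deposited table lists an adjusted p of 0.0167. RBM33 had 263 and 76 reads, a fold of 1.62 (1.25 to 2.11) and the highest signal per length in ZHX2, 164 reads per kb. RBM39, a U2AF2-like factor and the target of degraders such as indisulam, had 184 reads against 53 and a scaled fold of 1.62 (1.19 to 2.24).

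At 5 RBM genes the interval lay below 1 under the authors' scaling. RBM22 (ENSG00000086589), which contacts the catalytic RNA core of the spliceosome, had 31 ZHX2 and 33 Mut4 reads on chromosome 5, 150700750 to 150701343, 2.28-fold lower (1.35 to 3.85). RBM7, of the nuclear exosome targeting complex, had 38 and 36 reads and was 2.03-fold lower (1.25 to 3.29). The authors' deposited table lists 0.0888 and 0.161 as their adjusted p. RBM14 had 65 reads against 49 and a scaled fold of 0.619 (0.421 to 0.917), RBM42 56 and 41 reads and 0.638 (0.419 to 0.979), and RBM12 153 and 100 reads and 0.715 (0.552 to 0.929). RBM12 turned beyond counting error with unscaled reads, to a ratio of 1.53 (1.18 to 1.99). RBM3, RBM4, RBM4B, RBM15B, RBM26, RBM38, RBMX and RBMXL1 had intervals that hold 1.

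**Figure D2:**
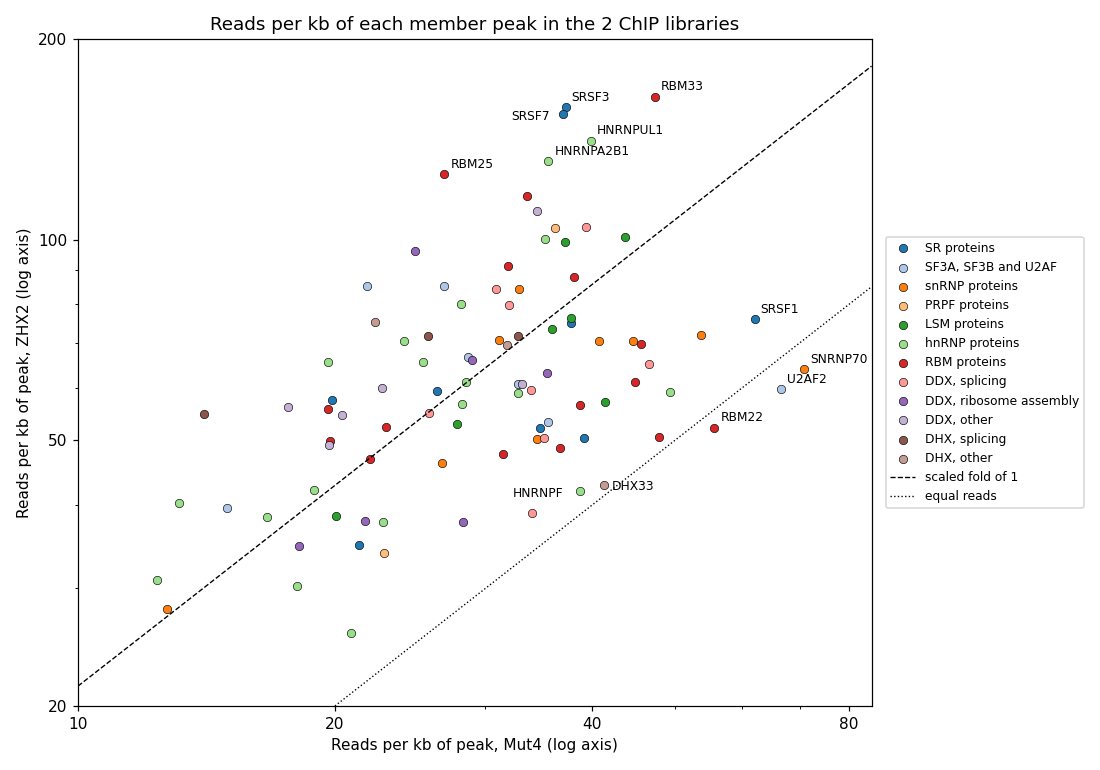
Reads per kb of peak in Mut4 (x, log axis) and in ZHX2 (y, log axis) for the 95 peaks, coloured by role, with the dashed line at a scaled fold of 1 and the dotted line at equal reads. RBM33, SRSF3 and SRSF7 are at the top with 155 to 164 reads per kb in ZHX2, while SNRNP70, U2AF2 and RBM22 fall under the line of equal reads.

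Levels per length showed how the groups of peaks differed. The 12 peaks with an interval above 1 had 65.5 to 164 reads per kb in ZHX2 (median 121) and 19.6 to 47.4 in Mut4 (median 34.0). The 13 with an interval below 1 had 39.0 to 76.0 in ZHX2 (median 57.2) and 34.0 to 70.8 in Mut4 (median 45.6). The remaining 70 had medians of 58.2 and 28.4. The ranges of the first 2 sets overlapped in both libraries. As the sets were formed by the fold, these levels are a description.

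Helicases had 26 peaks, 1 per gene, with 15 higher and 11 lower and a median log2 fold of 0.060. Their intervals lay above 1 at 2 peaks and below 1 at 2, and 22 hold 1, where 22.0% of all peaks had an interval apart from 1. Among DDX proteins of splicing and mRNP assembly DDX5 and DDX17, paralogs that act in splicing and as transcriptional coregulators, were the strongest. DDX5 had 266 ZHX2 and 100 Mut4 reads on chromosome 17, 64505006 to 64507548, a fold of 1.24 (0.983 to 1.58). DDX17 had 212 reads against 85 and a scaled fold of 1.16 (0.902 to 1.52). DDX39A (ENSG00000123136), an mRNA export helicase, had 71 and 62 reads on chromosome 19, 14418318 to 14420139, and was 1.87-fold lower (1.31 to 2.67), but at 1.15 (0.803 to 1.64) before scaling. Its paralog DDX39B had 53 reads against 38 and a scaled fold of 0.651 (0.421 to 1.02). DDX23, DDX41, DDX42 and DDX46, all spliceosomal, had folds from 0.670 to 1.27 with intervals that hold 1.

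Of the DDX genes of ribosome assembly, DDX51 (ENSG00000185163) had 101 ZHX2 and 26 Mut4 reads on chromosome 12, 132143833 to 132144882. The fold was 1.81 (1.17 to 2.91), for which the authors' deposited table lists 0.207 as the adjusted p. DDX21, DDX24, DDX50, DDX54 and DDX55 had folds from 0.623 to 1.06 with intervals that hold 1. DDX6 (ENSG00000110367), a helicase of P-bodies and mRNA decay, had 230 and 72 reads on chromosome 11, 118789994 to 118792080, a fold of 1.49 (1.14 to 1.97). DDX3X, which acts in translation and is mutated in some lymphomas, had 118 reads against 44 and a scaled fold of 1.25 (0.879 to 1.81). DDX1, DDX19B, DDX20 and DDX59 also had intervals that hold 1.

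The DHX genes of splicing were DHX15, DHX35 and DHX38. DHX15, which helps take spliceosomes apart, had 39 reads against 10 and a scaled fold of 1.82 (0.893 to 4.09), a wide interval because of the few Mut4 reads. DHX38, the helicase before the second step of splicing, had 67 reads against 24 and a scaled fold of 1.30 (0.807 to 2.17), and DHX35 81 and 37 and 1.02 (0.685 to 1.55). DHX33 (ENSG00000005100), of ribosome biogenesis, had 27 and 26 reads on chromosome 17, 5468573 to 5469203, and was 2.06-fold lower (1.16 to 3.67) under the authors' scaling. DHX36, which unwinds G-quadruplexes, had 81 reads against 24 and a scaled fold of 1.58 (0.989 to 2.60), and DHX40 59 and 27 and 1.02 (0.637 to 1.67).

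A ratio of the folds of 2 peaks cancels the scaling of the libraries, so it shows which peaks differed from each other however the libraries are scaled. It was taken within the 6 genes with 2 peaks. At U2AF2 the peak before the start had a fold 2.95 times that of the peak at the start (1.69 to 5.17), with 1048 bp between the peaks. For HNRNPF the promoter at 43396517 had a fold 2.82 times that of the other (1.43 to 5.80), at a distance of 9456 bp. SNRNP70 had a second, exonic peak with 22 and 10 reads, and its start had 0.410 times that fold (0.157 to 1.02), an interval that holds 1. The ratios at HNRNPA1, HNRNPL and SRSF11 also had intervals that hold 1, from 0.786 to 1.07. An interval apart from 1 was thus found at 2 of 6 genes, against 14.8% of 535 protein-coding genes with 2 peaks.

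Neighbouring members were compared in the same way, over 7 pairs whose peaks start within 200000 bp of each other. RBM12 and RBM39 lie 74814 bp apart on chromosome 20, and the fold of RBM12 was 0.441 times that of RBM39 (0.290 to 0.667). RBM14 and RBM4, 20151 bp apart on chromosome 11, had a ratio of 0.574 (0.348 to 0.948), and HNRNPLL and SRSF7, 147138 bp apart on chromosome 2, one of 0.534 (0.301 to 0.966). The other 4 pairs had intervals that hold 1. An interval apart from 1 was given by 19.8% of 3489 pairs of neighbouring protein-coding genes. Those pairs were consecutive among all protein-coding genes with a peak. Member pairs were consecutive among members only, with other genes allowed between them, so the 2 sets are unlike.

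Paralogs were set side by side in 12 pairs. Of these, U2AF1 over U2AF2 had an interval apart from 1, at 3.54 (1.78 to 7.20), where U2AF2 is its peak at the start. That peak had the lowest fold of all members and also entered the comparison within its gene. No share over paralog pairs in general was taken, so this 1 of 12 has no background here. SRSF3 over SRSF7 was 1.02 (0.645 to 1.60) and DDX5 over DDX17 1.07 (0.747 to 1.52). DDX39A over DDX39B was 0.821 (0.462 to 1.46), and LSM14A over LSM14B 1.48 (0.923 to 2.38). Even the narrowest of these intervals, that of DDX5 over DDX17, allows a ratio of up to 1.52, so they do not show that paralogs were bound alike. RBMX over its intronless copy RBMXL1 was 0.754 (0.384 to 1.503), and whether reads are shared between these loci was not tested.

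**Figure D3:**
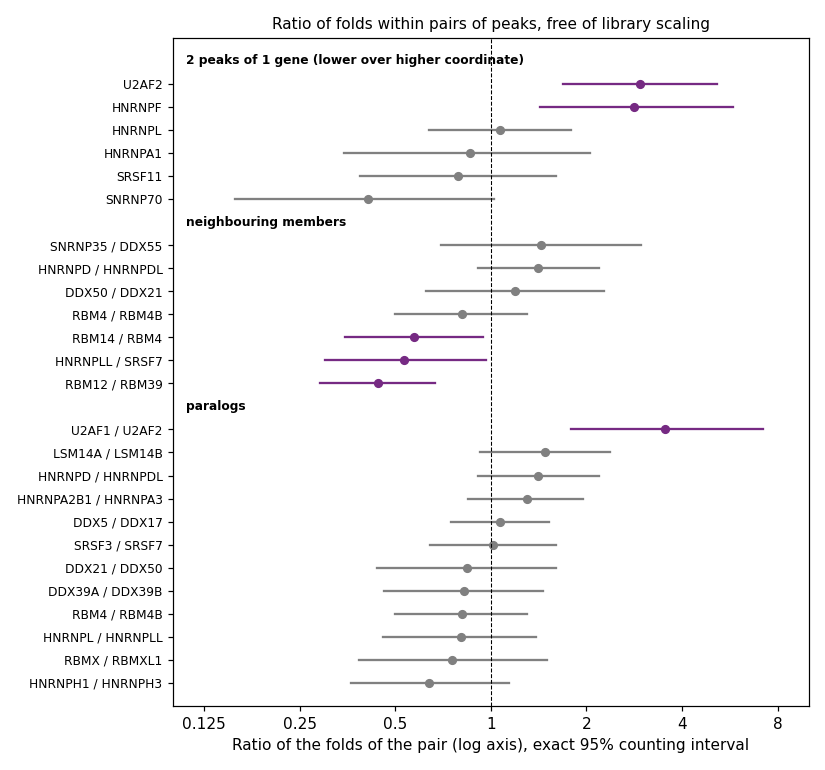
Ratio of the scaled folds of 2 peaks (log axis) with exact 95% counting intervals, for 6 genes with 2 peaks, 7 pairs of neighbouring members and 12 pairs of paralogs, in purple where the interval is apart from 1. U2AF2 and HNRNPF differ between their own peaks, and the ratio does not depend on how the libraries are scaled.

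Promoter features not used to choose the members were read from RefSeq windows of 300 bases, 250 before and 50 after the start. Such a row was found for 81 of the 89 genes, and a peak lay over the start at 78 peaks of 76 genes. CCAAT or ATTGG was in 38 of these 78 windows, 48.7% (37.2 to 60.3), against 32.9% of 3664 windows under peaks of protein-coding genes and 34.6% of all 35116 RefSeq windows. On either strand the ETS core CGGAAG was in 46.2% (34.8 to 57.8), against 35.0% under peaks and 19.5% of all. The CRE core TGACG was in 53.8% (42.2 to 65.2), against 39.5% and 24.6%, and the GC box GGGCGG in 60.3% (48.5 to 71.2), against 78.5% and 45.0%. The TATA box TATAAA was in 11.5% (5.41 to 20.8), against 4.53% under peaks and 11.5% of all. None of these strings contains another.

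The folds of members were also read with and without these letters. With CCAAT the median log2 fold was 0.10 over 38 peaks and without it -0.086 over 40, against 0.0083 and 0.034 over all promoters under peaks. With the GC box it was 0.22 over 47 peaks and without it -0.22 over 31, against 0.053 and -0.084. With the ETS core it was -0.14 over 36 and without it 0.10 over 42, against -0.063 and 0.081. With the CRE core it was 0.045 over 42 and without it -0.043 over 36, against 0.0083 and 0.039. With the TATA box it was -0.0034 over 9 and without it 0.032 over 69, against 0.071 and 0.023. The direction of the GC box and ETS differences was the same in the members as over all promoters, to which the members belong. That of the CCAAT, CRE and TATA differences was opposite. Among the 11 windows of peaks with an interval above 1, 6 held CCAAT, and among the 12 below 1, 7 did.

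GC content of the window had a median of 63.5% in members, against 68.3% under all protein-coding peaks and 58.7% over all RefSeq windows. Across the 3664 windows under peaks GC content and log2 fold had a Pearson correlation of 0.18 and a Spearman correlation of 0.19. Across the 78 member windows these were 0.065 and 0.087. The points share 2 libraries, so the values are descriptions, and the part of base composition in the folds was not tested. The log2 of peak length and log2 fold had a Pearson correlation of 0.29 over the 95 members and 0.30 over all peaks, and a Spearman correlation of 0.29 and 0.12. Mean log2 CPM and log2 fold had a Pearson correlation of 0.29 over the members and -0.085 over all peaks, and a Spearman correlation of 0.28 and -0.13. The part of signal strength in the member folds was not tested. An opposite-strand start within 1000 bp upstream was present at 24 of 78 member promoters, 30.8% (20.8 to 42.2), against 26.1% under protein-coding peaks. Examples were CBX3 at HNRNPA2B1, NOC4L at DDX51 and RMI1 at HNRNPK, where a peak cannot be assigned to either gene. The median log2 fold was -0.16 at the divergent member promoters and 0.045 at the others, against -0.046 and 0.053 over all 3664 promoters under protein-coding peaks.

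Chromosome 19 held 13 member peaks of 10 genes, and 10 of these were lower under the authors' scaling, among them the starts of SNRNP70 and U2AF2, DDX39A and RBM42. The share higher was 3 of 13, 23.1% (5.04 to 53.8), against 39.9% of all 855 peaks on that chromosome. HNRNPUL1 was its member with an interval above 1. The part of the chromosome in the folds of its members was not tested.

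Other genes of splicing, outside the name rule, were taken from a list of 100, of which 59 had 62 peaks. This count has no background here either. On the authors' scaling 26 were higher, 36 lower and the median log2 fold was -0.075, against 50.4% higher and a median of 0.0046 over all peaks. Of the 62 intervals 10 were apart from 1, 3 above and 7 below, beside 22.0% of all peaks, with 11.0% on each side. By mean CPM over both libraries the 5 strongest peaks were those of PTBP1, TRA2B, SF1, LUC7L2 and GEMIN4. PTBP1, a repressor that binds pyrimidine tracts, had 363 reads against 158 and a scaled fold of 1.07 (0.888 to 1.30). The intervals of SF1, LUC7L2 and GEMIN4 hold 1 as well. TRA2B, an SR-like protein, had 326 ZHX2 and 85 Mut4 reads and a fold of 1.79 (1.41 to 2.30). CLK1, a kinase of SR proteins, had 180 reads against 41 and a scaled fold of 2.05 (1.45 to 2.95), and its relative CLK4 122 and 30 and 1.90 (1.27 to 2.93). CLK1, CLK4 and the next 3 genes were singled out after their values were seen. In the opposite direction LUC7L, a U1-associated protein, had 53 reads against 57 and a scaled fold of 0.434 (0.293 to 0.643). SRRM1, a splicing coactivator, had 57 and 56 reads and 0.475 (0.323 to 0.69998), and EFTUD2, the GTPase of the U5 snRNP, 42 and 41 and 0.478 (0.304 to 0.754). The authors' deposited table lists adjusted p-values of 0.0364 for TRA2B, 0.0307 for CLK1, 0.0150 for LUC7L, 0.0390 for SRRM1, 0.0920 for EFTUD2 and 0.127 for CLK4. Before scaling SRRM1 and EFTUD2 held slightly more reads in ZHX2, and LUC7L more in Mut4.

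**Figure D4:**
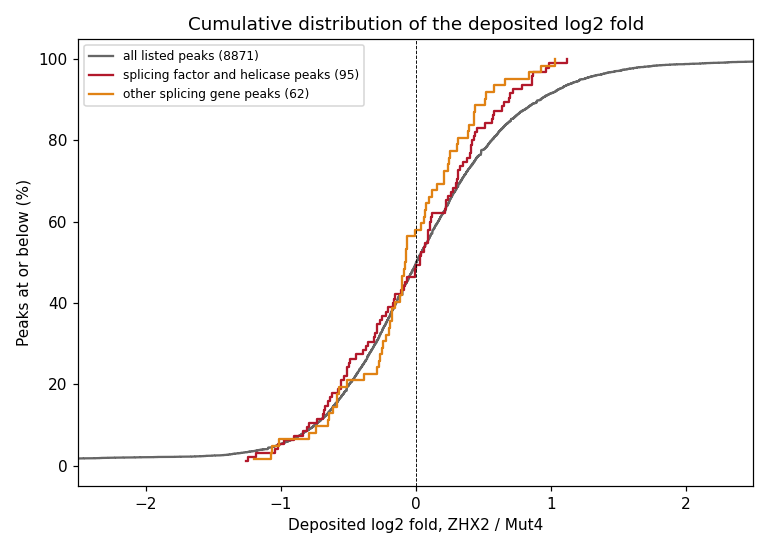
Cumulative share of peaks (percent) by the deposited log2 fold of ZHX2 over Mut4, for all 8871 listed peaks, the 95 splicing factor and helicase peaks and the 62 peaks of other splicing genes. The curves cross 0 near their middle on the authors' scaling, and the members span -1.25 to 1.12 against -9.30 to 9.39 for the full list. The full list is longer and goes down to 0 reads in either library, whereas members have at least 16 ZHX2 and 10 Mut4 reads.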

How the data were processed

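One deposited table was analysed, in which the authors compared the ChIP library of ZHX2 with that of Mut4. Each peak has a deposited log2 fold change, log2 CPM, p-value and adjusted p-value, per the file headers, and positive folds mean more signal in ZHX2. Tools in the submitters' processing notes are deepTools 3.4.3, HOMER, MACS2 2.2.6, Picard 2.22.2-0, BWA 0.7.17, MultiQC 1.8, FastQC 0.11.9 and Trim Galore 0.6.4, with hg38 as build and no roles. Not given in the sources used here are the tool of the comparison, the peak-calling settings and the base (0 or 1) from which starts count.

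Reads per library were solved from each deposited log2 fold and log2 CPM. The fold was assumed to hold 0.25 prior reads summed over both libraries, shared by library size. The CPM was assumed to hold 2 prior reads per library on average, shared in the same way, with a dispersion of 0.05. Whole reads gave back both values within 1e-09 at 8871 of 8871 peaks (100%), and the script was tested on simulated data. Depth outside the listed peaks is unknown. Without molecular identifiers, reads can be copies of 1 molecule, which the exact Clopper-Pearson intervals of shares and folds leave out. Ratios of folds have exact conditional odds-ratio intervals (Python 3.11.15, SciPy 1.17.1).

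Libraries were grouped by title. Inputs were not used, and the table had 0 unused columns of per-sample values. Members, gene lists, role groups and pairs were chosen with earlier results of these data known. Values in full went to members with a deposited adjusted p under 0.05, a common or Mut4-only peak, more than 1 peak, the 8 largest or smallest folds, or the 2 strongest peaks of a role group (36 genes). Further members were named after their values were seen. Unscaled reads, centring, the promoter class, 1 peak per gene, a signal filter, a 4-fold threshold and the reading of the name rule were varied.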

Additional observations from a re-analysis of the deposited data

How the results depend on the processing

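The counts and the median kept their values within 1.5 times or within the exact interval of the median under centring, 1 peak per gene, the promoter class, a filter at the median signal, and the reading of the name rule that drops 10 peaks. With unscaled reads 92 member peaks were higher and 3 lower, the median log2 fold was 1.13 and 54 peaks lay past 2-fold, against 49, 46, 0.029 and 6. Past 4-fold lay 0 peaks, and 25 had a counting interval apart from 1, a rule added after the values were seen. In the promoter class alone the median was -0.086, with 36 higher and 42 lower, inside the interval of -0.17 to 0.11 around the median of all members. The scaling of the libraries is the choice that sets direction here. No paired analysis was possible because each arm had 1 ChIP library, and no library could be left out. The reads per peak, at a median of 33 in Mut4, limit what single folds can show.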
